A study of Homo sapiens with 3 samples.

Results

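The 9 SP family genes, SP1 to SP9, were taken by name from the 20037 protein-coding genes of the RefSeq table (GRCh38.p14), and every deposited summit within 100 kb of each gene span was read. The summits come from H1299, an established human lung cancer cell line that the labels give as lung adenocarcinoma, with no treatment or genotype change named. CUT&RUN, in which an antibody tethers a nuclease that cuts free the DNA around its target, was done with 1 library each for SP1, for H3K27ac (a histone acetylation found at active promoters and enhancers) and for a control IgG. The SP1 list held 5570 summits and the H3K27ac list 3201, and the IgG library was not analysed here. With 1 library per antibody no value has a replicate and no test between groups was possible.

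SP proteins are transcription factors that bind GC-rich DNA, above all the GC box, through zinc fingers near their C-terminal end. SP1 to SP4 carry glutamine-rich activation domains, and SP1 and SP3 are made in nearly all cells and compete for the same sites. SP5 to SP9 are better known from development: SP5 as a target of Wnt signals, SP6 in teeth and skin, SP7 (osterix) in bone, SP8 in limb and brain, and SP9 in limb and forebrain. Since SP1 binds the kind of site found in its own promoter, the question put to the summits was whether SP1 lies at its own gene and at those of its relatives.

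Start sites and promoter sequence were given by RefSeq (GRCh38.p14) for 6 of the 9 genes. SP6, SP7 and SP9 were not among them, and for these genes either end of the span was used in place of a start. The 250 bases before the outermost start of each of the 6 genes follow, 5′ to 3′ on the strand of the gene. They are shown because the results below turn on which of these promoters carry a summit nearby. Capitals mark the GC box (GGGCGG or, on the other strand, CCGCCC) and the CCAAT box (CCAAT or ATTGG), the site of the factor NF-Y. The stretch of SP1 is chr12:53379926-53380175 (+), that of SP2 chr17:47895986-47896235 (+), of SP3 chr2:173965703-173965952 (-), of SP4 chr7:21427833-21428082 (+), of SP5 chr2:170715087-170715336 (+) and of SP8 chr7:20786887-20787136 (-).
SP1: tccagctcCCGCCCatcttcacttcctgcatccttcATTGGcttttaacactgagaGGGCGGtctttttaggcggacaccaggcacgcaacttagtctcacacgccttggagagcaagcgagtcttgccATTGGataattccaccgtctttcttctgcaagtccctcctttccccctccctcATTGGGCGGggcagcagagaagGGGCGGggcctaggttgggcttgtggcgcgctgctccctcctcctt
SP2: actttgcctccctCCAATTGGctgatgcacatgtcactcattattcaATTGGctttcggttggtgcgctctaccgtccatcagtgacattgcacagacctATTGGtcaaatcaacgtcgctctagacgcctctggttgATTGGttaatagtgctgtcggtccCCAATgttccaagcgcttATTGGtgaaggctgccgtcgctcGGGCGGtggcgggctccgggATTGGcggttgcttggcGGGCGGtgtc
SP3: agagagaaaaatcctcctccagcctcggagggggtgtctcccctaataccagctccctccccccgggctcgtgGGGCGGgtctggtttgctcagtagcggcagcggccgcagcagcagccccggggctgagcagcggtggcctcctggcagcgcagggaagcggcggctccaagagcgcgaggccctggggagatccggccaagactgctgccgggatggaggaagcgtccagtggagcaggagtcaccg
SP4: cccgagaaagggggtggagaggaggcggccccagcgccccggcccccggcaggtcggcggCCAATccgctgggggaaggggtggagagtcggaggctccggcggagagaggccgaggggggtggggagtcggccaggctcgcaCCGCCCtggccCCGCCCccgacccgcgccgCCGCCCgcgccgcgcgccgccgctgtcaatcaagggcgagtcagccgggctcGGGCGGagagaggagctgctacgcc
SP5: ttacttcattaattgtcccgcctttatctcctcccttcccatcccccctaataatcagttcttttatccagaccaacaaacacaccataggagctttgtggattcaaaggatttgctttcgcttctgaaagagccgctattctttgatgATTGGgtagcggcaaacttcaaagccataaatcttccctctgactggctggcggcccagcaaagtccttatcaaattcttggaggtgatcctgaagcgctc
SP8: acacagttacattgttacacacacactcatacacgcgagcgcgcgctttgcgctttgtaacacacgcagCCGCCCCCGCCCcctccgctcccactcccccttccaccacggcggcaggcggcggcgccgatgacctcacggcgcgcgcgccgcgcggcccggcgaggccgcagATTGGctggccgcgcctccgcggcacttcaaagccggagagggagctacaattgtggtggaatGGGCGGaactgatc

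SP1 summits lay at the starts of 3 of the 9 genes, SP1 itself, SP2 and SP4. A start summit is a summit within 1000 bases of a start, and 14.1% of all protein-coding genes had one (2821 of 20037). The share among the SP genes was 33.3%, with a 95% Wilson interval of 12.1 to 64.6 that covers counting error only and holds the background share. The 3 genes all belong to SP1 to SP4, of which 3 of 4 had a start summit, against 0 of 5 among SP5 to SP9. This split follows the known branches of the family and was looked at after the values were known, so it stands as a description.

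SP1, the gene of the profiled factor itself, carried the strongest of these summits. The gene spans 53380176 to 53416446 on chromosome 12 and has 2 starts in the table, 468 bases apart. The main summit lay at 53379724, outside the gene and 452 bases upstream of the outer start. Its score was 25.7 (−log10 of the p or q value of the call, larger for a surer call), which is rank 136 of 5570 in the list. A second, weak summit lay at 53380927 inside the gene, 283 bases downstream of the inner start, with a score of 4.73 (rank 4233). Start summits at 2 or more positions were found in 318 of the 2821 genes with a start summit (1.59% of all protein-coding genes).

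SP2, a broadly expressed member, had a summit nearly on its start. It lay at 47896316 on chromosome 17, 80 bases downstream of the start, with a score of 14.1 (rank 543). SP4, best known in neurons, had a summit at 21427574 on chromosome 7, 509 bases upstream of its start. Its score of 4.34 (rank 4650) was below the list's median of 6.17, so the SP4 call is weak beside the other 2 genes. SP4 dropped out with a window of 500 bases and with summits above the median or the upper quartile of the score, which left 2 of 9 genes. Under these settings 12.1%, 10.6% and 6.33% of all genes had a start summit.

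Set against all 2821 genes with a start summit, the 3 genes spread over nearly the whole range of ranks. SP1 ranked 125th by its highest score, within the top 4.43%. SP2 ranked 550th, within the top 19.5%, above the upper quartile of 12.5. SP4 ranked 2687th, with 95.2% of the genes at or above it, below the lower quartile of 6.21. Just above SP1 in this ranking stood HSD11B1L and MICOS13, which share a summit scoring 26.0, and NQO2, also at 26.0. Just below SP1 stood DCAKD and NMT1, which share a summit scoring 25.5, and ZNF559 at 25.5. By difference of score in this 1 library, DCAKD and NMT1 were the closest to SP1.

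**Figure D1:**
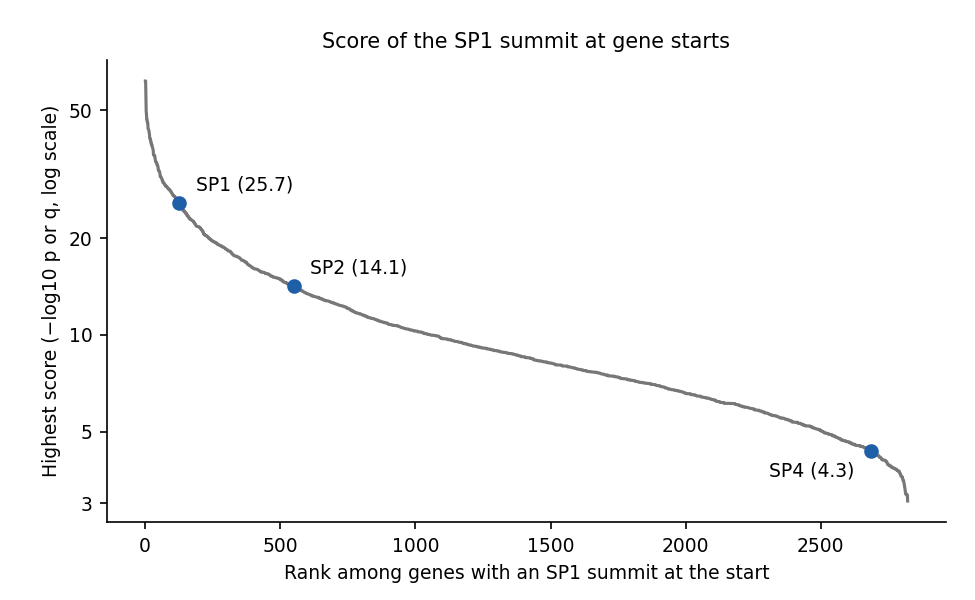
Highest SP1 score at a gene start (−log10 of a p or q value, log axis) against its rank, for the 2821 protein-coding genes with a start summit (grey line), with the 3 SP genes as points. SP1 stands at 25.7 and SP2 at 14.1, while SP4 at 4.34 lies near the end of the curve.

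The summits also differed in place relative to the start. Over the 2361 genes with a table start and a start summit, the summit nearest to a start had a median position of -182 bases (quartiles -324 and 118, negative upstream) and 59.8% were upstream. Only 9.06% of these genes had a summit as near to a start as SP2. The nearest summit of SP1 was the weak one at 283 bases, beside a median distance of 238 bases. A nearest summit as far off as the main SP1 summit, at 452 bases, was found in 16.9%, and one as far off as that of SP4 in 12.7%.

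SP3, the closest relative of SP1 and its partner in competition for GC boxes, had no start summit. It spans 173900775 to 173965702 on chromosome 2 and has 3 starts in the table, so the absence holds for each of them. The nearest SP1 summit lay at 174008800, 43.1 kb upstream, with a score of 4.25 (rank 4794). Summits only list what passed the caller's threshold, with scores from just above 3, so weaker signal at SP3 cannot be seen in these data.

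None of the developmental members had an SP1 summit inside the gene or at an end. SP7 came nearest, with a summit 5.10 kb from its low-coordinate end (53326575 to 53344793 on chromosome 12). That summit, at 53321480 with a score of 18.5, lay 130 bases from a start of AAAS, a nuclear pore protein gene, and inside AAAS. SP6 (47844908 to 47876311 on chromosome 17) had its nearest summit 20005 bases away, and this was the start summit of SP2. No SP1 summit lay within 100 kb of SP5, SP8 or SP9. Their nearest summits were 187 kb, 641 kb and 136 kb from the span, and that of SP8 was the start summit of SP4. SP4 and SP7 are thus the genes on either side of the 1000-base limit, at 509 and 5095 bases.

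**Figure D2:**
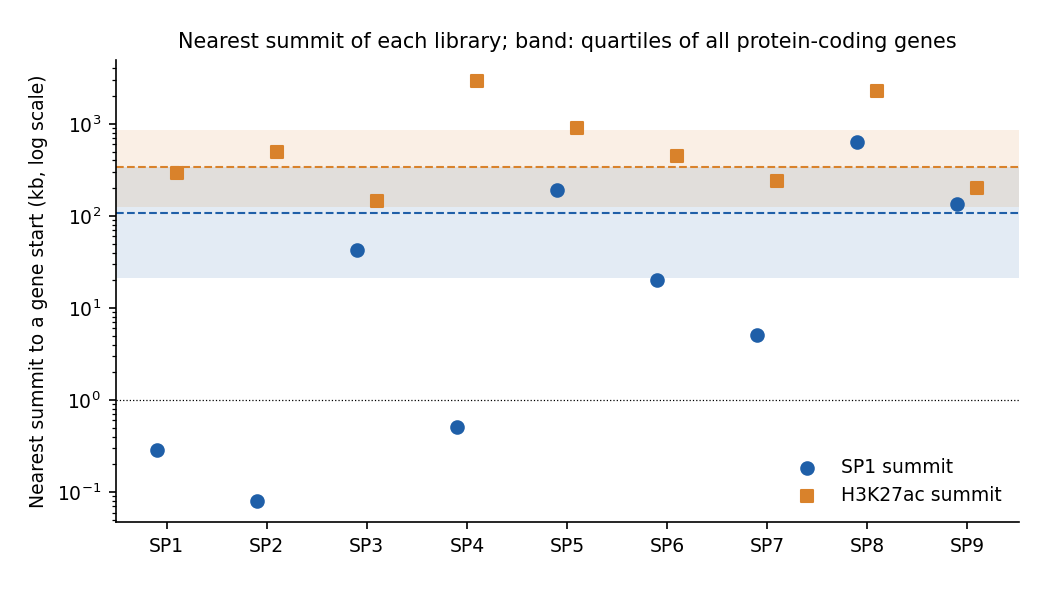
Distance in kb (log axis) from a start of each SP gene, or from an end of SP6, SP7 and SP9, to the nearest SP1 summit (circles) and H3K27ac summit (squares). Dashed lines and bands give the median and quartiles over all 20037 protein-coding genes, and the dotted line marks 1 kb; SP1, SP2 and SP4 lie below it for SP1 summits, and no gene does for H3K27ac.

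The wider surroundings followed the layout of the family on the chromosomes. SP7 and SP1 are neighbours, 35.4 kb apart, and SP6 and SP2 are 19.9 kb apart, so each pair shares summits and cannot be counted as independent. Counting each summit once, 15 SP1 summits lay within 100 kb of an SP gene, with scores from 4.25 to 34.6 and a median of 7.60. Of these, 10 were at the start of a protein-coding gene, which was a neighbour in 6 cases. Over the whole list 47.1% of summits were at such a start. An SP1 summit within 100 kb of the span was found for 6 of the 9 genes, against 52.6% of all protein-coding genes, which is near the background.

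The SP1 and SP7 stretch of chromosome 12 was the densest. SP1 had 9 summits within 100 kb of its span and SP7 had 7, of which 6 were common to both. The median over all genes was 1, and 0.809% of them had 9 or more. The highest in the stretch was not at SP1 but at 53441401, 333 bases from a start of PRR13, with a score of 34.6 (rank 55). Next after the SP1 start and AAAS came a summit at 53421498, scoring 12.8, 2357 bases from a start of AMHR2, the receptor gene for anti-Müllerian hormone. Lower scores were found beside ESPL1 (7.40), which encodes the protease separase, beside TARBP2 (6.30), a partner of Dicer, and inside the kinase gene MAP3K12 (6.92 and 6.96). A summit at 53371151, 9.03 kb upstream of SP1 and outside any protein-coding gene, scored 7.60.

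Around SP2 the summits were fewer. Besides the start summit there were 2 within 100 kb. The first, at 47971240 with a score of 12.7, lay 127 bases from a start of CDK5RAP3. The second, at 48025549 with a score of 8.94, had COPZ2, a coatomer subunit gene, as nearest start at 12.2 kb. Around SP3 and SP4 there was 1 summit each.

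**Figure D3:**
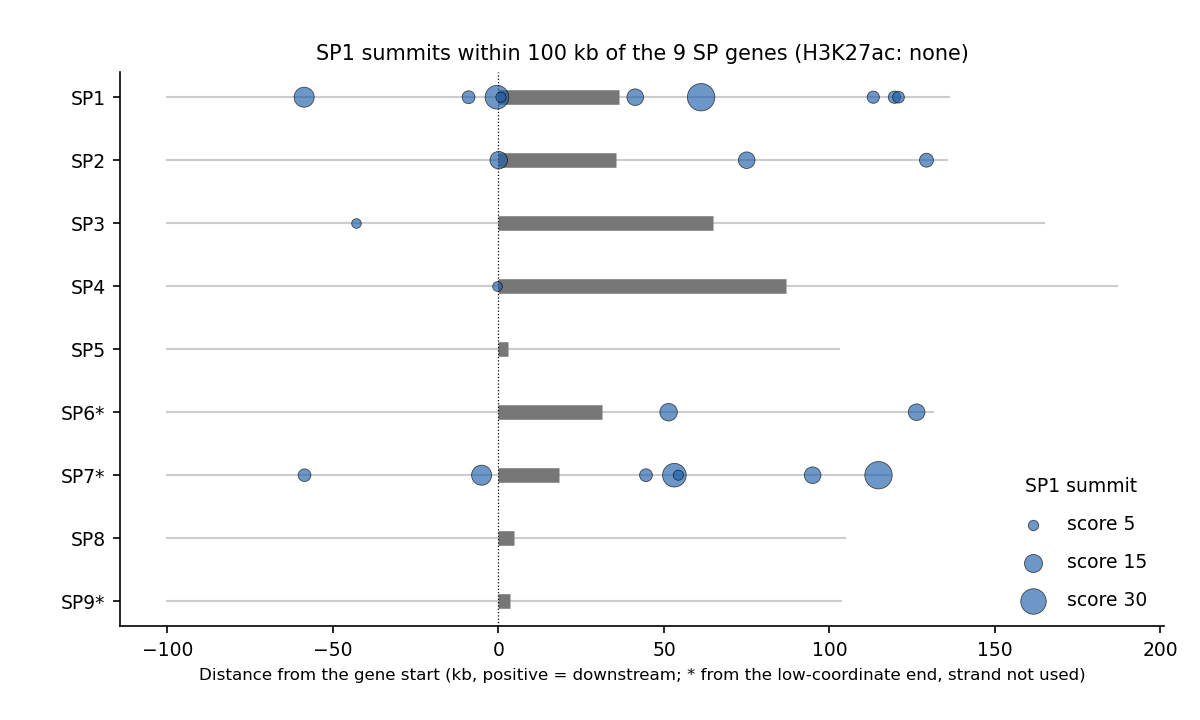
Positions of SP1 summits (circles, area proportional to score) around the 9 SP genes, in kb from the outermost start along the direction of the gene, or from the low-coordinate end for SP6, SP7 and SP9 (starred). Grey bars are gene spans and thin lines the 100 kb on each side; SP1 and SP7 have 9 and 7 summits, SP5, SP8 and SP9 have none.

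Among the deposited ranked regions, in which the authors joined neighbouring peaks, 3 SP1 regions lay within 100 kb of an SP gene, and each held 1 peak. The region upstream of SP1, at 53370789 to 53371275, ranked 180 of 2356. The region near COPZ2 ranked 315 and that upstream of SP3 ranked 1912. None of the 4 start summits at SP1, SP2 and SP4 lay in a ranked region, as was the rule for start summits, of which 0.953% of 2623 did. Of the 15 summits near SP genes 3 lay in a ranked region, against 44.1% of all SP1 summits. These shares are not like for like, since 10 of the 15 were at a protein-coding start, against 47.1% of all SP1 summits. No H3K27ac region lay within 100 kb of any SP gene.

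H3K27ac was not called near any SP gene. No summit of this library lay at a start (0 of 9, Wilson interval up to 29.9%), but only 0.759% of all protein-coding genes had such a summit, so a count of 0 is at the background. Within 100 kb of the span the count was also 0 of 9, where 24.0% of all genes had a summit. The nearest one to a start was 147 kb from SP3, 201 kb from SP9, 237 kb from SP7 and 291 kb from SP1. It was 442 kb from SP6, 493 kb from SP2, 904 kb from SP5, 2278 kb from SP8 and 2919 kb from SP4. The median over all genes was 340 kb, and 4 of the 9 SP genes were nearer than that. None of the 15 SP1 summits had an H3K27ac summit within 500 bases, and the smallest distance was 104 kb. Only 2.41% of all 5570 SP1 summits had one, so this count is at the background too. The list holds few starts of any kind, and no lung marker gene of 5 (among them NKX2-1 and SFTPB) had an H3K27ac start summit, nor did any of 3 blood, 2 neuron and 2 liver markers. These lists therefore cannot check the cell type, and the absence of H3K27ac at SP genes cannot be read as an inactive promoter.

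The promoter windows of the table run from 250 bases before to 50 bases after a start, and none of the 4 start summits lay inside the windows of its own gene. The gap was 31 bases at SP2, 202 and 234 bases at SP1 and 259 bases at SP4. The counts below therefore describe the promoters, not the bases under the summits. Overlapping matches were counted separately.

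GC boxes were present at the outermost start of all 6 genes, with and without a summit. SP1 and SP4 had 4 each, and 12.7% of 15842 genes had as many. SP8 had 3, SP2 had 2, and SP3 and SP5 had 1, the last of these after the start. At least 1 was found in 58.3% of genes. The inner start of SP1 had 10, a number reached at the outermost start of 0.271% of genes. The inner starts of SP3 had 2 each and still no summit.

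CCAAT boxes set SP2 apart. Its window held 8 matches, more than that of any of the other genes with a window, where the next highest count was 6. The first 2 overlap in a palindrome, seen above as CCAATTGG. SP1 had 3, a number that 634 of the 15842 genes reach, and its innermost match runs into a GC box (ATTGGGCGG above). SP4, SP5 and SP8 had 1 each and the outermost start of SP3 had 0. At least 1 match was found in 36.4% of genes. No SP gene window held TATAAA or its complement, found in 9.75% of genes.

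**Figure D4:**
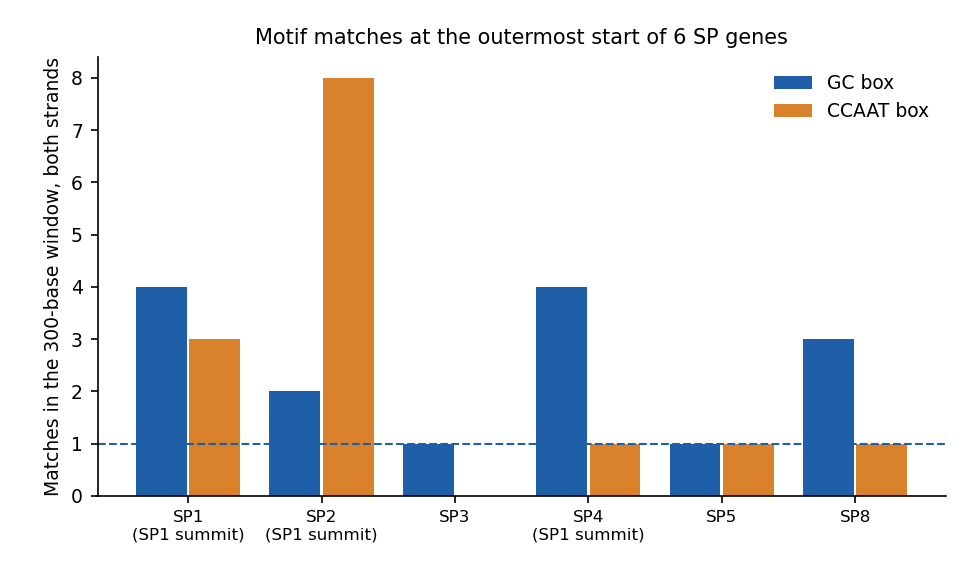
Matches to the GC box and the CCAAT box on both strands in the 300-base window at the outermost start of 6 SP genes. The dashed line is the median of 1 GC box over 15842 genes (the median for the CCAAT box is 0); SP2 stands out with 8 CCAAT boxes and SP1 and SP4 with 4 GC boxes each.

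Over all genes with a window, start summits went with both motifs. With no GC box 7.68% of genes had a start summit (Wilson interval 7.06 to 8.35), with 1 box 17.4% and with 5 or more 23.8% (21.4 to 26.3), so that the share changed little beyond 2 or 3 boxes. With no CCAAT box the share was 13.1% (12.4 to 13.8), with 3 boxes 28.0% (24.0 to 32.4) and with 4 boxes 40.3% (32.1 to 49.1). With 5 or more it rose no further, at 27 of 71 genes (27.6% to 49.7%). SP1 and SP2 lie in the classes of 3 and of 5 or more CCAAT boxes. The median GC content of the windows rose with GC boxes, from 53.0% with none to 77.0% with 5 or more, and lay between 60.0% and 64.0% in every class of CCAAT boxes. Its part in the shares was not tested. Genes that share a start region are each counted, so the genes are not independent.

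**Figure D5:**
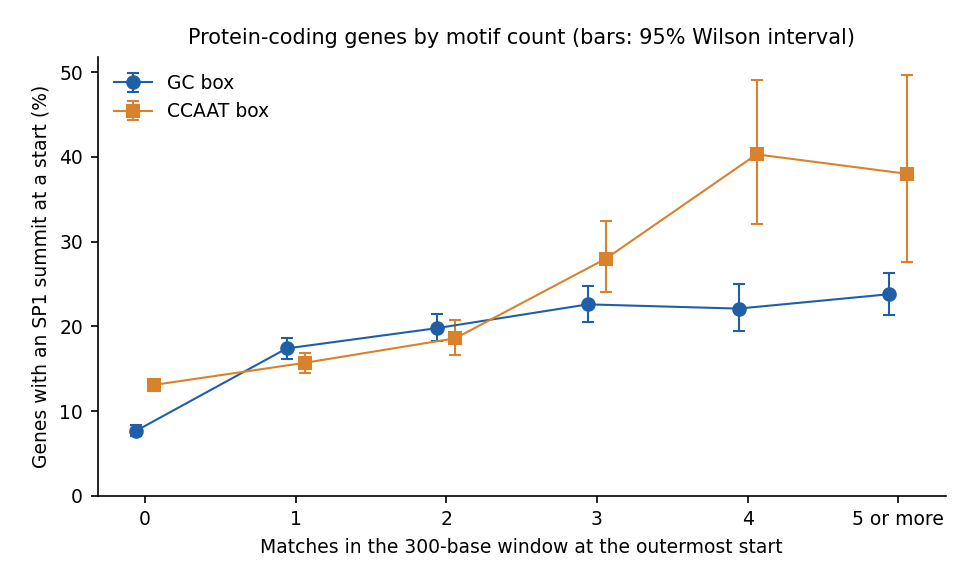
Share of protein-coding genes with an SP1 start summit, in percent, by the number of GC boxes (circles) or CCAAT boxes (squares) in the 300-base window at the outermost start. Bars are 95% Wilson intervals; the share rises from 7.68% to 23.8% with GC boxes and from 13.1% with no CCAAT box to 40.3% with 4, with 27 of 71 genes at 5 or more.

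A list of 30 genes was also compared, those of SP1 partners and modifiers and of other binders of GC-rich DNA. A start summit was found at 10 of them (33.3%, Wilson interval 19.2 to 51.2, against 14.1% of all genes). The list was chosen with earlier results of these data known, and the difference from all genes was not tested. The highest-scoring were USF1, an E-box factor gene, at 14.3, and NFYC, a subunit of the CCAAT-binding factor NF-Y, at 13.8. EGR1, an immediate early factor gene whose product binds overlapping GC-rich sites, had 10.6 and ZBTB7B 10.5. NFYA, the NF-Y subunit that contacts the CCAAT box, had 8.75, the corepressor gene SIN3A 8.15, YY1 7.25 and HCFC1 6.12. HDAC1 and VEZF1 had lower scores, and the other 20 genes, such as EP300 and OGT, had no start summit. The KLF family, whose zinc fingers are the nearest relatives of those of the SP proteins, had start summits at 2 of 18 genes (11.1%), KLF13 at 14.1 and KLF11 at 7.51. No gene of either list had an H3K27ac start summit.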

How the data were processed

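For the SP1 and H3K27ac libraries the authors deposited peak summits, single bases with a score that is −log10 of either a p-value or a q-value, and ranked regions with a score that is the rank. Per the submitters' processing notes, the build is hg38 and the tools include deepTools 3.4.1 and cutadapt 2.5. Which value the score is, the aligner, the peak caller and its control are not stated. Depth is unknown without read counts, and more depth would add summits. Scores were compared within the SP1 list only.

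Gene spans, starts and promoter sequence came from RefSeq (GRCh38.p14). Starts were given for 15842 of 20037 protein-coding genes on 24 chromosomes, and for the others either end of the span was used. The main window was 1000 bases around a start. Motifs were sought on both strands in 300-base windows, 1 per gene at the outermost start. Intervals are Wilson 95% and cover counting error only. Calculations used Python 3.11.15 and pandas 2.3.3. The search for start summits and the nearest distances were tested on simulated summits, and the other steps were not.

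The members and gene lists were chosen with earlier results of these data known. Named genes are all SP genes, the nearest protein-coding gene of each summit within 100 kb, the 3 genes above and below SP1 by score, and up to 8 genes with a start summit from each list. HDAC1, VEZF1, EP300, OGT, NKX2-1 and SFTPB, and the genes named in the closing section, stand outside this rule. A planned comparison of the SP proteins' zinc fingers was not run, since protein sequence was not used here.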

Additional observations from a re-analysis of the deposited data

How the results depend on the processing

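No paired analysis was possible because each antibody had 1 library. All 18 alternative values run for counts of the report stayed within 1.5 times the main count (0 where the main count was 0). Not all of them could have moved, as said below for table starts alone and for the H3K27ac counts. A fall from 3 to 2 or from 15 to 10 just meets that limit. The counts of ranked regions and GC boxes had no alternative. SP4 was the only SP gene to change: it dropped out with a window of 500 bases, with summits above the median score and with summits above the upper quartile, which left SP1 and SP2, as given above. The count was 3 with a window of 2500 bases (15.3% of all genes), with either end of the span (13.7%) and, chosen after seeing the data, with table starts alone (14.9%). With table starts alone it could not differ, since SP1, SP2 and SP4 all have table starts. The 15 summits near SP genes became 12 above the median score and 10 within 50 kb. The 10 genes of the partner and binder list became 7 above the median score (23.3%, Wilson interval 11.8 to 40.9). At that setting 10.6% of all genes had a start summit, and the difference was not tested. H3K27ac counts were 0 under each alternative run. They could not have been otherwise, since no H3K27ac summit lay within 100 kb of an SP gene or of the 15 SP1 summits. What depth limits is unknown.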

Other observations

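The share of genes with an SP1 start summit by CCAAT boxes is given here separately for promoters with and without a GC box. Among genes with at least 1 GC box, 17.2% of those with no CCAAT box had an SP1 start summit (Wilson interval 16.2 to 18.1), 22.3% with 1 box, 26.1% with 2, and 158 of 416 with 3 or more (an interval of 33.4% to 42.7%). Among genes with no GC box the shares were 7.25%, 7.47% and 6.95% with 0, 1 and 2 boxes, and 19.3% with 3 or more (42 of 218). The difference between these classes was not tested. SP1 and SP2 both belong to the class with a GC box and 3 or more CCAAT boxes.

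Only 18 of 15842 genes had 6 or more CCAAT boxes in the window. Of the 17 besides SP2, 5 had an SP1 start summit, among them CDK2AP2, and the others, such as ARID4A and CETN2, had none. Over all 15842 genes with a window the share was 14.9% (2361 genes), and with 5 or more CCAAT boxes it was 27 of 71. The difference between these shares was not tested. The choice of these genes followed their values.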
